A study of Mus musculus with 6 samples.

Results

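The genes described here encode the subunits of the mitochondrial respiratory chain and of ATP synthase, with the assembly factors whose symbols share their prefixes. A gene was taken when GENCODE M21 lists it as protein coding and its symbol starts with Ndufa, Ndufb, Ndufc, Ndufs, Ndufv, Sdha, Sdhb, Sdhc, Sdhd, Uqcr, Cox4, Cox5, Cox6, Cox7, Cox8, Atp5 or mt-. Of 43629 gene IDs in the table, 110 met this rule. Of these, 97 lie in the nuclear genome and 13 in the mitochondrial genome. The nuclear members comprise 36 subunits of complex I, 4 of complex II, 8 of complex III, 18 of complex IV and 16 of complex V, 14 assembly factors, and Ndufa4l2, a paralogue of the complex IV subunit Ndufa4. Subunits whose symbols start otherwise, such as the cytochrome c1 gene Cyc1 of complex III, are not members.

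The libraries hold mRNA of marrow cells sorted for c-kit, from C57BL/6 mice that had reached the leukaemic end point. Every mouse had the Cbfb-MYH11 knockin allele, the mouse form of the fusion gene made by an inversion of chromosome 16 in human acute myeloid leukaemia. In the Gata2+/f group (replicates 7, 9 and 11) 1 Gata2 allele was the one that the labels write as f, and in the Gata2+/+ group (replicates 3, 5 and 6) neither was. The labels give neither the animals' age nor what deletes or drives the f allele, and marrow was frozen and thawed before the sort. Each group held 3 libraries, and the labels do not state that each came from a separate mouse, so p-values measure the spread between these libraries.

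The respiratory chain passes electrons from NADH (complex I) and succinate (complex II) through ubiquinone, complex III and cytochrome c to oxygen at complex IV, and pumps protons as it does so. ATP synthase, or complex V, uses the proton gradient to make ATP. Complex II is built from nuclear genes alone. The other complexes join nuclear subunits, made in the cytosol and imported, with a few subunits that the mitochondrial genome encodes. Leukaemic stem and progenitor cells are known for a high dependence on this pathway.

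Library totals lay between 53789568 and 67854631 expected counts, at which 3 counts correspond to 0.0424 to 0.0600 CPM (counts scaled to library size by TMM factors). Gata2, the zinc finger factor under study, had 498, 273 and 264 CPM in Gata2+/f, against 886, 887 and 737 CPM in Gata2+/+. Kit, the receptor used for the sort, was present in all libraries with 193, 175 and 328 CPM in Gata2+/f, against 826, 1222 and 1466 CPM in Gata2+/+, and the groups did not overlap for either gene. Markers of other blood cells also differed. Summed CPM of 10 mature neutrophil markers were 4001 to 8000 in Gata2+/f and 151 to 443 in Gata2+/+, and all 10 had a positive log2 fold change (median 3.90). Those of 10 monocyte markers were 824 to 1744 and 240 to 771 (10 of 10 positive, median 1.72), and those of 10 mast cell and basophil markers 1151 to 3804 and 9743 to 11613 (0 of 9 tested positive, median −2.49), again with Gata2+/f first. Erythroid markers summed to 1932 to 6597 CPM in Gata2+/f and 6491 to 10513 CPM in Gata2+/+ (5 of 10 positive, median −0.03), and 8 stem and progenitor markers to 835 to 1083 and 1928 to 2666 CPM (3 of 8 positive, median −0.55). B cell markers stayed between 15.7 and 24.3 CPM in Gata2+/f and 3.46 and 9.65 CPM in Gata2+/+ (5 of 8 tested, 5 positive, median 1.17), and T cell markers between 2.96 and 5.59 and between 0.76 and 2.06 CPM (4 of 8 tested, 4 positive, median 0.87). Gata2 is itself 1 of the mast cell and basophil markers, and Kit 1 of the stem and progenitor markers, so the counts and sums of these lists include them. No marker list had all its genes at 0. The part of these markers in the values of the respiratory genes was not tested, and in bulk RNA a change in the mix of cells and a change of RNA per cell cannot be told apart.

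Nuclear genes for subunits of the respiratory chain and ATP synthase lay mostly a little higher in Gata2+/f than in Gata2+/+ leukaemia. Their medians were above 0 in all 5 complexes. The 13 mitochondrially encoded genes also had a median above 0 (0.15, with 9 positive). The groups overlapped for all 13, where 13.1% of all tested genes lay higher and 16.6% lower without overlap. No single gene passed the test. Of the 82 nuclear subunits, 79 passed the filter on low counts, and 70 of these had a positive log2 fold change of Gata2+/f over Gata2+/+, with a median of 0.35. Among all 15432 tested genes 51.1% were positive and the median was 0.019. In 30 of the 79 subunits (38.0%) every Gata2+/f library lay above every Gata2+/+ library, where 13.1% of all tested genes did so. In 1 subunit, Ndufa6, every Gata2+/f library lay below, which 16.6% of all tested genes did. For single genes the shift was small beside the spread between libraries. The edgeR quasi-likelihood test, adjusted over all tested genes with a threshold of 0.05, called 0 of 107 tested members, and the background was also 0.0% of 15432 genes. At an unadjusted p under 0.05, 16 members lay higher (15%, against 11.1% of all genes) and 2 lower (1.87%, against 11.5%). DESeq2 called 0 members higher, where it called 6.16% of all genes, and 2 lower, Ndufa6 and Cox7a2l, where it called 5.7%. The newer form of edgeR's test called 0 members in either direction (0.0842% of all genes higher and 0.123% lower), and limma voom with sample quality weights also called 0 members.

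**Figure D1:**
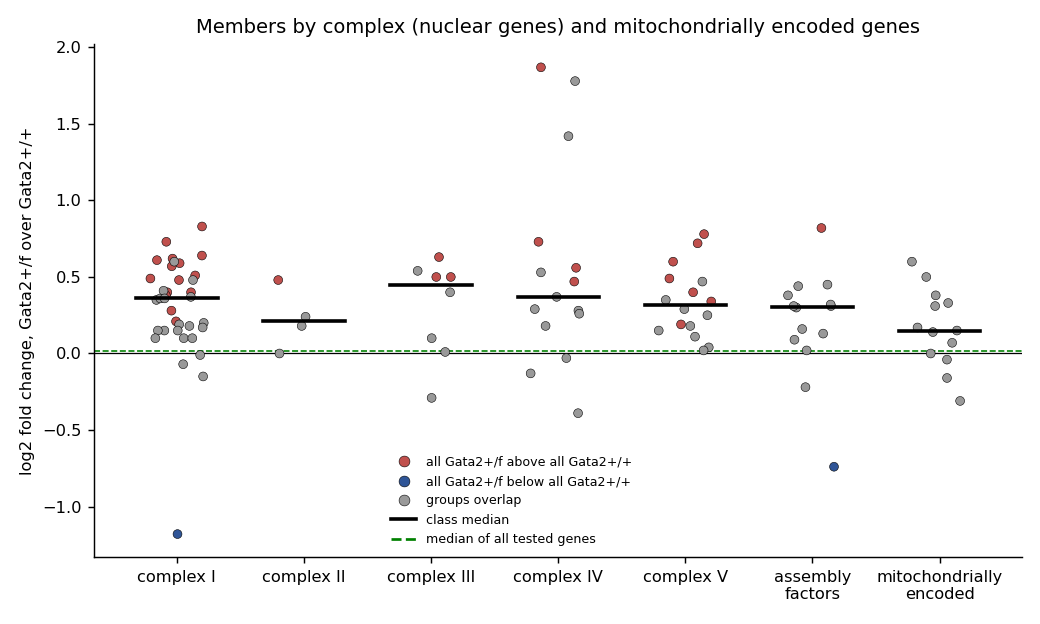
Log2 fold change of Gata2+/f over Gata2+/+ (vertical axis) for 106 of the 107 tested members, 1 point each, by complex; Ndufa4l2, whose reads came almost entirely from 1 library, is left out. Black bars are class medians (0.36, 0.21, 0.45, 0.37 and 0.31 for complexes I to V, 0.31 for assembly factors and 0.15 for mitochondrially encoded genes), and colour shows whether the 3 Gata2+/f libraries lie above, below or among the 3 Gata2+/+ libraries.

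The shift was not of 1 size in the 3 Gata2+/f libraries. For each gene the deviation of log2(CPM + 0.5) from its mean over the 6 libraries was taken, and its median over the 79 nuclear subunits was 0.168, 0.389 and −0.055 in Gata2+/f replicates 7, 9 and 11, against −0.138, −0.255 and −0.133 in Gata2+/+ replicates 3, 5 and 6. Gata2+/f replicate 9 was the highest of all libraries for 52 of the 79 subunits, replicate 7 for 16 and replicate 11 for 1. Gata2+/+ replicate 5 was the lowest for 35. Gata2+/f replicate 11 thus lay close to the Gata2+/+ libraries. Leaving it out raised the median log2 fold change to 0.52 and the number of subunits that lay higher with no overlap to 52 (21.6% of all genes then), with 1 lower, while leaving out replicate 9 gave 0.32 and 30 subunits higher (17.7%) and 5 lower (22.6%). With any 1 library left out, between 67 and 76 of the 79 were positive. Over all protein-coding genes, short transcripts also lay higher in Gata2+/f replicate 9. The rank correlation of transcript length with a library's deviation was −0.39 there and between 0.05 and 0.17 in the other libraries. The part of length in the high values of that library was not tested. The summed level of the nuclear subunits was 10631, 10887 and 8580 CPM in Gata2+/f, against 8685, 7745 and 9030 CPM in Gata2+/+. The sums of the groups overlapped, since Gata2+/f replicate 11 lay below Gata2+/+ replicates 3 and 6.

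**Figure D2:**
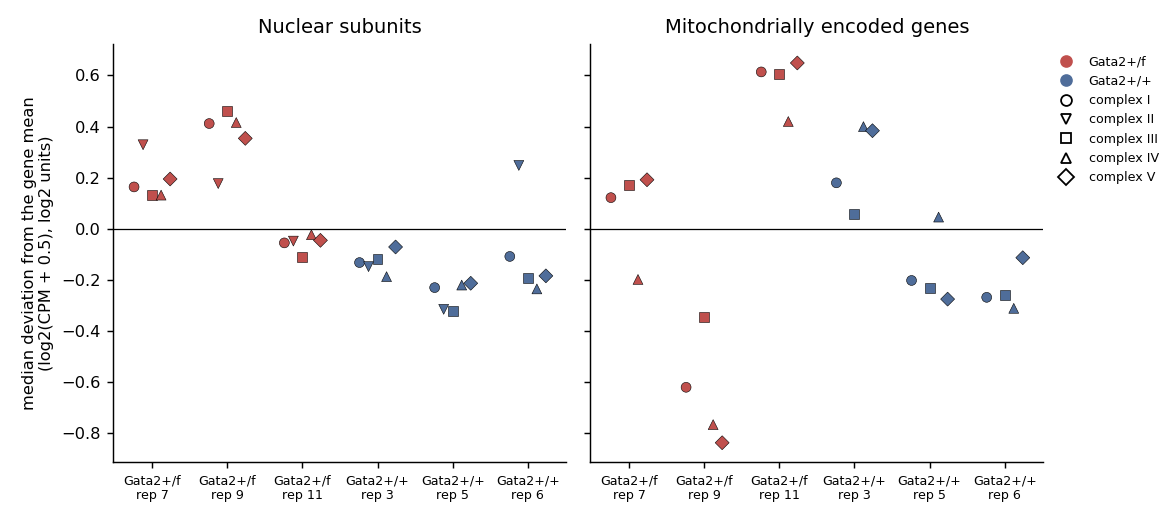
Median deviation of each complex from the gene means, in log2 units (vertical axis), in each library (horizontal axis), for nuclear subunits (left) and mitochondrially encoded genes (right). Nuclear subunits are highest in Gata2+/f replicate 9 for every complex but II, and mitochondrially encoded genes are lowest there and highest in Gata2+/f replicate 11.

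Promoters of nuclear members were searched for motifs known from genes of respiration. RefSeq windows from 250 bases before to 50 after the start (GRCm38.p6) were at hand for 78 nuclear members, and 3 of those are printed to show the motifs beside the genes whose values are given next: Ndufa6, which was lower in Gata2+/f, and Atp5k and Atp5g1, which had the smallest p of the subunits that were higher. Capitals mark matches on either strand to the cores of NRF1 (GCATGCGC), ETS factors (CCGGAAG) or YY1 (AAGATGGCG) or to a CCAAT box. The windows are chr15:82354242-82354541, chr5:108434350-108434649 and chr11:96075582-96075881, all on the reverse strand.
Ndufa6: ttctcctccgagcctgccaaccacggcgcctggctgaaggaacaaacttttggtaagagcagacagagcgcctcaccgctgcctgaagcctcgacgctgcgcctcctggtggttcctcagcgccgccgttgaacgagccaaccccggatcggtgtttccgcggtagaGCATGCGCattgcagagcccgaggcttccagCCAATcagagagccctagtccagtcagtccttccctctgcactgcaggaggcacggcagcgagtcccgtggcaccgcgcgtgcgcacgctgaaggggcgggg
Atp5k: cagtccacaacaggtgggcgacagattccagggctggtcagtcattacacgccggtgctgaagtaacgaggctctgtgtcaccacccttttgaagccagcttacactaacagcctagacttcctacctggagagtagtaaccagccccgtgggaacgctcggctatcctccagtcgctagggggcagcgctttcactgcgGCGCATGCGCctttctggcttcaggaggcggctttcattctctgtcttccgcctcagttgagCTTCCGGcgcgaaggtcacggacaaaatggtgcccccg
Atp5g1: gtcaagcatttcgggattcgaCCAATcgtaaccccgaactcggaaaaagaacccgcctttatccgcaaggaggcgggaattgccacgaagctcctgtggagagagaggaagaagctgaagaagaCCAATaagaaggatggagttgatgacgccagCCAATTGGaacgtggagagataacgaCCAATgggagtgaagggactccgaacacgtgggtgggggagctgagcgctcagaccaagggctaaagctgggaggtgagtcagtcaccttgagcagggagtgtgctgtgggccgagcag
The Ndufa6 window holds 1 NRF1 core and 1 CCAAT box, the Atp5k window an NRF1 core that reads on both strands and 1 ETS core, and the Atp5g1 window 5 CCAAT boxes, 2 of them overlapping on opposite strands, so no motif is in all 3. The window of Cox7a2l, the other member that DESeq2 called lower, held none of these motifs. An NRF1 core was found in 12 of the 78 windows (15.4%, against 3.94% of windows of protein-coding genes). An ETS core was found in 21 (26.9%, against 12.9%) and a YY1 core in 8 (10.3%, against 2.14%), whereas a CCAAT box was as frequent as elsewhere, in 34 (43.6%, against 42.3%). Among the 27 of these members in which all Gata2+/f libraries lay above all Gata2+/+ libraries, 5 held an NRF1 core, 6 an ETS core, 6 a YY1 core and 11 a CCAAT box. In the same order, 12, 21, 8 and 34 of all 78 did. The 27 were picked by their expression in these libraries, and a link between any motif and the shift was not tested.

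Complex I, the NADH dehydrogenase, had 32 of 36 nuclear subunits positive (median log2 fold change 0.36). On the higher side 15 of the 36 did not overlap (41.7%, against 13.1% of all tested genes). Ndufa6, an accessory subunit that binds the mitochondrial acyl carrier protein, went the other way and had the smallest p of any member. It lies on chromosome 15 (chr15:82350140-82354322, GRCm38, reverse strand). Ndufa6 had 55.7, 79.3 and 60.1 CPM in Gata2+/f, against 176, 116 and 151 CPM in Gata2+/+. All Gata2+/f libraries were below all Gata2+/+ libraries, with a log2 fold change of −1.18 ± 0.25 (SE) and an edgeR adjusted p of 0.0966. DESeq2 gave −1.17 with an adjusted p of 0.00307. Leaving out any 1 library left the edgeR value between −1.34 and −0.98. Genes of chromosome 15 as a whole were shifted by a median of −0.079, −0.086 and −0.155 in Gata2+/f replicates 7, 9 and 11 and by 0.296, −0.104 and 0.313 in Gata2+/+ replicates 3, 5 and 6, on the log2 scale; the part of this shift in the Ndufa6 value was not tested. The other members on chromosome 15 were nearer 0, at −0.15 for Ndufb9, −0.03 for Cox6c and 0.04 for Atp5g2.

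Among the other complex I subunits, Ndufa5, an accessory subunit of the matrix arm, had 32.5, 41.3 and 22.3 CPM in Gata2+/f, against 18.4, 18.5 and 17.1 CPM in Gata2+/+. Its log2 fold change was 0.83 ± 0.29 (edgeR adjusted p = 0.167). Ndufa9, an accessory subunit of the matrix arm that binds NADPH, had 98.0, 104 and 74.5 CPM in Gata2+/f, against 64.1, 50.9 and 65.9 CPM in Gata2+/+ (0.61 ± 0.22, adjusted p = 0.179). In both genes the groups did not overlap and Gata2+/f replicate 11 was the lowest of its group. The membrane arm subunits Ndufc1 and Ndufc2 had log2 fold changes of 0.73 and 0.64. The others above all Gata2+/+ libraries were Ndufa8, Ndufa11, Ndufa12, Ndufb3, Ndufb5, Ndufb6, Ndufb10, Ndufs4, Ndufs5, Ndufs6 and Ndufs8, from 0.21 for Ndufb10 to 0.62 for Ndufa12. On the negative side beside Ndufa6 were Ndufb9, Ndufb4 (−0.07) and Ndufa7 (−0.01), all with overlap. Ndufb4 averaged 22.2 ± 2.74 CPM in Gata2+/f and 23.2 ± 2.35 CPM in Gata2+/+ (SD, n = 3 each), and its value is uncertain because more reads stood in the row of Ndufb4c, a copy that matches it over 390 bases without a mismatch. Ndufa1 had the highest mean of both groups per kilobase of transcript among nuclear complex I members (194 CPM per kilobase in Gata2+/f and 171 in Gata2+/+) and overlapped (0.18 ± 0.25). Within Gata2+/+ alone Ndufa6 lay above it, at 110 CPM per kilobase in Gata2+/f and 250 in Gata2+/+.

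The parts of complex I differed in how far they lay from 0, in a division made after the values had been seen. The 7 nuclear subunits of the catalytic core had a median log2 fold change of 0.20 and 1 of them (14.3%), Ndufs8, did not overlap. The 29 accessory subunits had a median of 0.38, with 14 (48.3%) that did not overlap on the higher side. A like order was seen in complex III, at 0.10 for its 3 core and iron-sulphur subunits and 0.50 for its 5 small subunits, and in complex V, at 0.15 for the 5 subunits of the F1 head and central stalk and 0.37 for the 8 peripheral stalk and membrane subunits outside the c ring. Complex II showed no such order, with Sdha at −0.0 and Sdhb at 0.48, against 0.24 and 0.18 for the anchors Sdhd and Sdhc. Pooled with Sdha and Sdhb, the core, F1 head and central stalk subunits of complexes I, III and V had a median of 0.19. Not all of this core pool is catalytic. In it 2 of 17 (11.8%) did not overlap on the higher side, close to the 13.1% of all tested genes. All other tested nuclear subunits had a median of 0.38 and 28 of 62 (45.2%) without overlap on that side; the difference between the classes was not tested. Transcript length moves with this division, since the median transcript was 1623 bases for the core pool and 682 bases for the others. Over the 79 subunits the rank correlation of transcript length with a library's deviation was 0.40, −0.25 and −0.11 in Gata2+/f replicates 7, 9 and 11 and −0.22, −0.16 and 0.43 in Gata2+/+ replicates 3, 5 and 6. Over all protein-coding genes it was −0.39 in Gata2+/f replicate 9 and between 0.05 and 0.17 in the other libraries. The part of length in the difference between the core pool and the other subunits was not tested.

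Complex II, succinate dehydrogenase, had 3 of 4 subunits positive (median 0.21), but this median was 0.05 when Gata2+/+ replicate 5 was left out, 0.45 when Gata2+/+ replicate 6 was and 0.34 when Gata2+/f replicate 11 was. Sdhb, the iron-sulphur subunit, had 79.3, 77.1 and 59.9 CPM in Gata2+/f, against 50.8, 50.9 and 53.6 CPM in Gata2+/+. Its groups did not overlap (0.48 ± 0.20, edgeR adjusted p = 0.22). The membrane anchors Sdhd (0.24 ± 0.25) and Sdhc (0.18 ± 0.24) overlapped. Sdha, the flavoprotein subunit, averaged 275 ± 71.9 CPM in Gata2+/f and 275 ± 63.0 CPM in Gata2+/+ (SD, n = 3 each). Per kilobase, Sdhd was the most abundant, at 131 CPM per kilobase in Gata2+/f and 110 in Gata2+/+.

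Complex III, the cytochrome bc1 complex, had 7 of 8 nuclear subunits positive (median 0.45). Its 3 subunits that lay higher without overlap (37.5%, against 13.1% of all tested genes) were small ones. Uqcrq had 56.3, 90.9 and 59.3 CPM in Gata2+/f, against 47.5, 43.4 and 42.6 CPM in Gata2+/+ (0.63 ± 0.25, edgeR adjusted p = 0.198). Uqcrb had 70.9, 105 and 83.2 CPM in Gata2+/f, against 61.0, 59.6 and 61.9 CPM in Gata2+/+ (0.50 ± 0.21, adjusted p = 0.219); it shares 50 exon bases with Gm10767 on the other strand. Uqcr10 had 84.1, 108 and 67.6 CPM in Gata2+/f, against 65.0, 57.4 and 61.1 CPM in Gata2+/+ (0.50 ± 0.23, adjusted p = 0.246). For all 3 genes Gata2+/f replicate 9 was the highest library. Uqcrh, the hinge subunit and the most abundant nuclear member of the complex per kilobase, was the exception, with 266, 281 and 253 CPM in Gata2+/f, against 340, 366 and 274 CPM in Gata2+/+ (−0.29 ± 0.21); its groups overlapped at Gata2+/f replicate 9. The core subunit Uqcrc2 was at 0.01 ± 0.27.

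**Figure D3:**
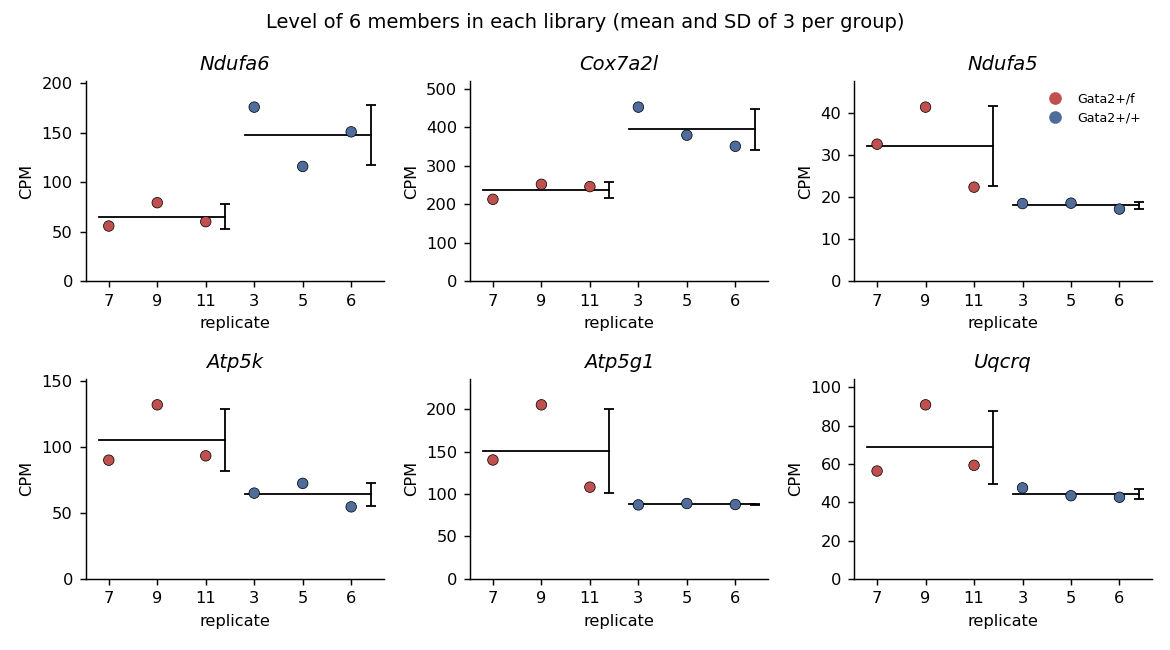
CPM in each library (points) of Ndufa6, Cox7a2l, Ndufa5, Atp5k, Atp5g1 and Uqcrq, with Gata2+/f replicates 7, 9 and 11 on the left and Gata2+/+ replicates 3, 5 and 6 on the right of each panel; lines are group means and bars the SD (n = 3). Ndufa6 and Cox7a2l are lower in all Gata2+/f libraries, and the others are higher in all of them, most of all in replicate 9.

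Complex IV, cytochrome c oxidase, had 12 of 15 tested nuclear subunits positive, with a median of 0.37, or 0.60 without Gata2+/f replicate 11. Ndufa4, first described in complex I and now known as a subunit of complex IV, had 119, 190 and 117 CPM in Gata2+/f, against 93.6, 84.3 and 79.8 CPM in Gata2+/+ (0.73 ± 0.25, edgeR adjusted p = 0.167). Cox7b had 135, 154 and 114 CPM in Gata2+/f, against 96.5, 82.3 and 94.4 CPM in Gata2+/+ (0.56 ± 0.21, adjusted p = 0.181). Cox6b1 had 242, 273 and 209 CPM in Gata2+/f, against 185, 171 and 168 CPM in Gata2+/+ (0.47 ± 0.20, adjusted p = 0.228). All 3 genes were above all Gata2+/+ libraries in each Gata2+/f library, again most in replicate 9. On the higher side 4 of the 15 did not overlap (26.7%, against 13.1% of all tested genes). These were the 3 genes and Cox6a2, which had at most 1.88 CPM in any library. Cox4i1, the most abundant nuclear member of the complex per kilobase (431 CPM per kilobase in Gata2+/f and 361 in Gata2+/+), overlapped (0.26 ± 0.25). Cox8a (−0.39 ± 0.28) and Cox5b (−0.13 ± 0.32) were on the negative side and overlapped.

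Several complex IV subunits exist as isoforms whose second forms are known from other tissues, and these were low or not detected here. The heart and muscle isoform Cox7a1 had 0.764, 2.36 and 2.08 CPM in Gata2+/f, against 0.780, 0.613 and 0.545 CPM in Gata2+/+ (1.42 ± 0.56, edgeR adjusted p = 0.20), where the widely expressed Cox7a2 averaged 101 ± 13.6 CPM in Gata2+/f and 83.0 ± 9.49 CPM in Gata2+/+ (0.28 ± 0.20). The groups overlapped for Cox7a1 at replicate 7. The heart and muscle isoform Cox6a2 had 1.17, 1.54 and 1.88 CPM in Gata2+/f, against 0.360, 0.834 and 0.0623 CPM in Gata2+/+, with no overlap (1.87 ± 0.83, adjusted p = 0.233), and it shares 70 exon bases with the integrin gene Itgad on the other strand, whose reads cannot be told apart from it if strand was not used. The widely expressed Cox6a1 was at 0.18 ± 0.20. Cox4i2, the isoform best known from lung, was at 0.383 ± 0.247 CPM in Gata2+/f and 0.110 ± 0.112 CPM in Gata2+/+ (SD, n = 3 each), and the testis isoform Cox6b2 at 12.3 ± 4.35 and 9.52 ± 0.370 CPM, where Cox6b1 averaged 241 ± 32.2 CPM in Gata2+/f and 175 ± 8.79 CPM in Gata2+/+. Cox7b2 and Cox8c had 0 counts in all libraries and Cox8b had 1 count, in Gata2+/f replicate 7; these 3 did not pass the filter. The low isoforms weigh on the median, since without members under a mean of 1 CPM the median of complex IV was 0.29.

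Complex V, ATP synthase, had all 16 tested nuclear subunits positive in the fit of all 6 libraries (median 0.31). In 7 of them (43.8%, against 13.1% of all tested genes on the higher side) the groups did not overlap. Atp5k, subunit e of the membrane part, had 90.0, 132 and 93.3 CPM in Gata2+/f, against 65.0, 72.4 and 54.6 CPM in Gata2+/+ (0.72 ± 0.24, edgeR adjusted p = 0.157). Atp5g1, 1 of the 3 genes for the c ring, had 140, 205 and 108 CPM in Gata2+/f, against 87.1, 88.7 and 87.5 CPM in Gata2+/+ (0.78 ± 0.27, adjusted p = 0.163). Atp5o, the subunit that joins the stalk to the F1 head, had 160, 200 and 133 CPM in Gata2+/f, against 113, 106 and 105 CPM in Gata2+/+ (0.60 ± 0.22, adjusted p = 0.179), with up to 356 exon bases shared with antisense genes. In these 3 genes the Gata2+/f libraries differed among themselves more than the Gata2+/+ libraries did, with replicate 9 the highest. Atp5j (0.49 ± 0.20), Atp5j2 (0.40 ± 0.21) and Atp5f1 (0.19 ± 0.19), of the stalk and membrane part, also did not overlap. Atp5f1 was the most even of these, at 273, 264 and 269 CPM in Gata2+/f, against 252, 224 and 232 CPM in Gata2+/+. The 3 c ring genes encode the same mature protein and differed in size of shift: Atp5g3 was at 0.34 ± 0.20 with no overlap and Atp5g2 at 0.04 ± 0.27 with overlap. Atp5b, the catalytic beta subunit and the most abundant nuclear member of the complex per kilobase, had 1255, 1045 and 854 CPM in Gata2+/f, against 793, 629 and 857 CPM in Gata2+/+ (0.47 ± 0.27), and overlapped at replicates 11 and 6. Atp5d, of the central stalk, was the nearest to 0 (0.02 ± 0.24).

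Of the 14 assembly factors, 12 were positive (median 0.31, or 0.13 when Gata2+/f replicate 9 was left out and 0.51 when replicate 11 was). Without overlap, 1 gene lay higher and 1 lower (7.14% each way, against 13.1% and 16.6% of all tested genes). Cox7a2l, which helps join complexes III and IV into supercomplexes and of which C57BL/6 mice are known to carry a shortened form, was the lower one. It lies at chr17:83501918-83517330 on the reverse strand. Cox7a2l had 213, 252 and 246 CPM in Gata2+/f, against 453, 380 and 351 CPM in Gata2+/+. Its log2 fold change was −0.74 ± 0.22 (edgeR adjusted p = 0.136, DESeq2 adjusted p = 0.0325) and stayed between −0.78 and −0.58 with any 1 library left out. Its relatives Cox7a1 and Cox7a2 had positive values. Ndufaf4, a complex I assembly factor, had 34.1, 25 and 18.3 CPM in Gata2+/f, against 14.4, 13.6 and 15.8 CPM in Gata2+/+ (0.82 ± 0.30, adjusted p = 0.18). Ndufaf1, which works with it, was at 0.44 ± 0.35 and overlapped.

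Ndufa4l2, a paralogue of Ndufa4 known to be induced by low oxygen, was high in 1 library. It had 0.0283, 346 and 0.448 CPM in Gata2+/f replicates 7, 9 and 11, against 0.0400, 0 and 2.30 CPM in Gata2+/+. Outside Gata2+/f replicate 9 the level was within 2.30 CPM, and its edgeR adjusted p was 0.228, with a log2 fold change that turned to −1.65 without that library. The same library also had the highest summed level of 15 glycolysis genes, 7537, 13274 and 8415 CPM in Gata2+/f, against 9164, 8013 and 10386 CPM in Gata2+/+. A link between Ndufa4l2 and glycolysis genes in that library was not tested.

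In all 13 mitochondrially encoded genes, which are transcribed as long joint precursors, the groups overlapped. Of all tested genes, 13.1% lay higher and 16.6% lower without overlap. The 13 genes had a median log2 fold change of 0.15 with 9 positive. The median was 0.47 when Gata2+/f replicate 9 was left out, 0.07 when Gata2+/f replicate 11 was, and 0.41 when Gata2+/+ replicate 3 was. Their median deviation was 0.122, −0.620 and 0.598 in Gata2+/f replicates 7, 9 and 11, against 0.180, −0.202 and −0.268 in Gata2+/+ replicates 3, 5 and 6. Gata2+/f replicate 9 was the lowest of all libraries for 9 of the 13 genes and Gata2+/f replicate 11 the highest for 10. The Gata2+/f group thus held both extremes. Nuclear subunits ran the other way in these 2 libraries, being highest in replicate 9 and the lowest of the group in replicate 11. The summed level of the 13 genes was 26701, 17246 and 39945 CPM in Gata2+/f, against 34651, 26250 and 27805 CPM in Gata2+/+. Divided by the summed level of the nuclear subunits it gave 2.51, 1.58 and 4.66 in Gata2+/f, against 3.99, 3.39 and 3.08 in Gata2+/+, so the Gata2+/+ ratios all lay between those of Gata2+/f replicates 7 and 11.

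By complex, mt-Co1, the catalytic subunit of complex IV and the most abundant member per kilobase (8995 CPM per kilobase in Gata2+/f and 11139 in Gata2+/+), had 13053, 8605 and 20032 CPM in Gata2+/f, against 19756, 15464 and 16410 CPM in Gata2+/+ (−0.31 ± 0.40, edgeR adjusted p = 0.673). The cytochrome b gene mt-Cytb of complex III had 3951, 2766 and 5342 CPM in Gata2+/f, against 3655, 2992 and 2930 CPM in Gata2+/+ (0.33 ± 0.33, adjusted p = 0.572). In both genes Gata2+/f replicate 9 was the lowest of all libraries and Gata2+/f replicate 11 the highest. The 7 complex I genes mt-Nd1, mt-Nd2, mt-Nd3, mt-Nd4, mt-Nd4l, mt-Nd5 and mt-Nd6 had log2 fold changes of 0.14, 0.50, 0.60, 0.17, 0.31, −0.16 and 0.07, with SEs of 0.28 to 0.47. In complex V, mt-Atp8 was the most abundant per kilobase and averaged 867 ± 658 CPM in Gata2+/f and 869 ± 510 CPM in Gata2+/+ (SD, n = 3 each), and mt-Atp6 was at 0.15 ± 0.29.

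Counts of 6 of these genes depend on how the authors' counting divided reads between the mitochondrial genome and near-identical copies on chromosome 1. Gm10222, Gm28438, Gm28437, Gm10925, Gm28661 and Gm29216 lie side by side from position 24612407 to 24616197 of chromosome 1 and match mt-Nd4l, mt-Nd3, mt-Co3, mt-Atp6, mt-Co2 and mt-Co1 at 99.71% to 100% of aligned bases. For mt-Co2 the mitochondrial row held 3.16%, 6.31% and 2.40% of the reads given to gene and copy together in Gata2+/f, against 2.28%, 10.1% and 1.85% in Gata2+/+. The copy of mt-Co3 held 2960% of the reads of its mitochondrial row, that of mt-Atp6 1440%, that of mt-Nd3 651% and that of mt-Nd4l 265%, summed over libraries. Levels were therefore also taken as the sum of gene and copy. In these sums mt-Co2 averaged 5851 ± 1741 CPM in Gata2+/f and 5575 ± 1558 CPM in Gata2+/+, and mt-Co3 5507 ± 1881 CPM in Gata2+/f and 5715 ± 1457 CPM in Gata2+/+ (SD, n = 3 each). The log2 fold changes of the sums were 0.07 for mt-Co2, −0.05 for mt-Co3, 0.09 for mt-Atp6, 0.18 for mt-Nd3, 0.18 for mt-Nd4l and −0.28 for mt-Co1, and all 6 overlapped. With the copies added to the 13 genes the ratio to the nuclear subunits was 3.70, 2.64 and 6.97 in Gata2+/f, against 6.04, 4.70 and 4.69 in Gata2+/+, with the same libraries at both ends.

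**Figure D4:**
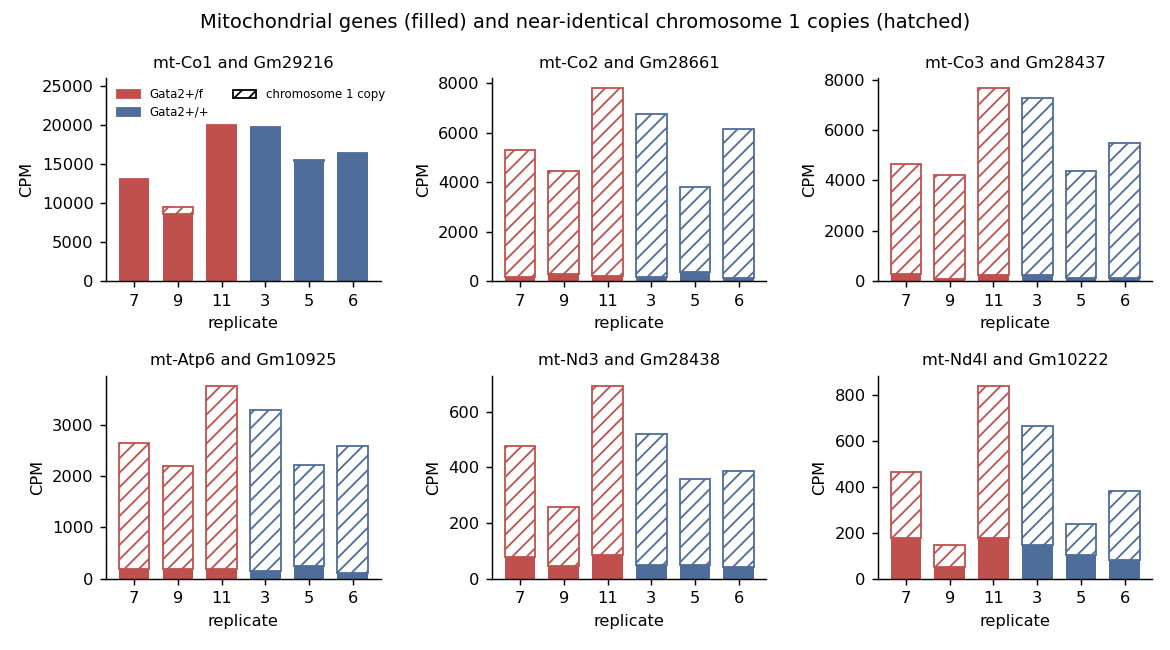
CPM of 6 mitochondrially encoded genes (filled) and of their chromosome 1 copies (hatched, stacked on top) in each library, Gata2+/f replicates on the left and Gata2+/+ replicates on the right of each panel. Most reads of 5 of the genes stand in the copy, and for mt-Co1 the copy holds a visible share in Gata2+/f replicate 9 alone, at 924 CPM.

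The levels of some mitochondrially encoded genes relative to mt-Co1 were separate between the groups, which was looked at after the group values had been seen. mt-Co1 made up 48.9%, 49.9% and 50.1% of the summed level of the 13 genes in Gata2+/f, against 57.0%, 58.9% and 59.0% in Gata2+/+. That sum leaves out the reads given to the chromosome 1 copies; with all copies added to both, the share was 33.2%, 33.1% and 33.5% in Gata2+/f, against 37.7%, 42.5% and 38.8% in Gata2+/+. The ratio of mt-Cytb to mt-Co1 was 0.303, 0.321 and 0.267 in Gata2+/f, against 0.185, 0.193 and 0.179 in Gata2+/+. mt-Nd1 gave ratios of 0.214, 0.194 and 0.194 in Gata2+/f, against 0.146, 0.144 and 0.149 in Gata2+/+. For mt-Nd4 they were 0.157, 0.156 and 0.156 in Gata2+/f, against 0.123, 0.112 and 0.0999 in Gata2+/+. The groups did not overlap for these genes, nor for mt-Nd2 (0.0892 to 0.118 in Gata2+/f and 0.0567 to 0.0699 in Gata2+/+), also when Gm29216 was added to mt-Co1. The ratio of mt-Nd5 was separate only without that addition, and those of mt-Nd6 and mt-Atp8 overlapped. With genes and copies summed, the ratios of mt-Co2 (0.39 to 0.468 in Gata2+/f and 0.246 to 0.374 in Gata2+/+), mt-Atp6 (0.188 to 0.23 and 0.144 to 0.166) and mt-Nd3 (0.0269 to 0.0365 and 0.0231 to 0.0262) were separate as well, and those of mt-Co3 and mt-Nd4l overlapped. The 2 mitochondrial ribosomal RNAs were lower in Gata2+/f, with mt-Rnr1 at 770, 324 and 602 CPM in Gata2+/f, against 1206, 1102 and 1404 CPM in Gata2+/+, and mt-Rnr2 at 610, 304 and 938 CPM, against 1464, 939 and 1259 CPM (edgeR adjusted p = 0.147 and 0.223); poly-A selection leaves only part of these RNAs in a library. With 3 libraries against 3 an exact permutation test of a ratio cannot give a two-sided p below 0.1, so none of these ratios could pass 0.05. All of the ratios share mt-Co1 as the denominator, so those that were separate are not independent of each other.

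**Figure D5:**
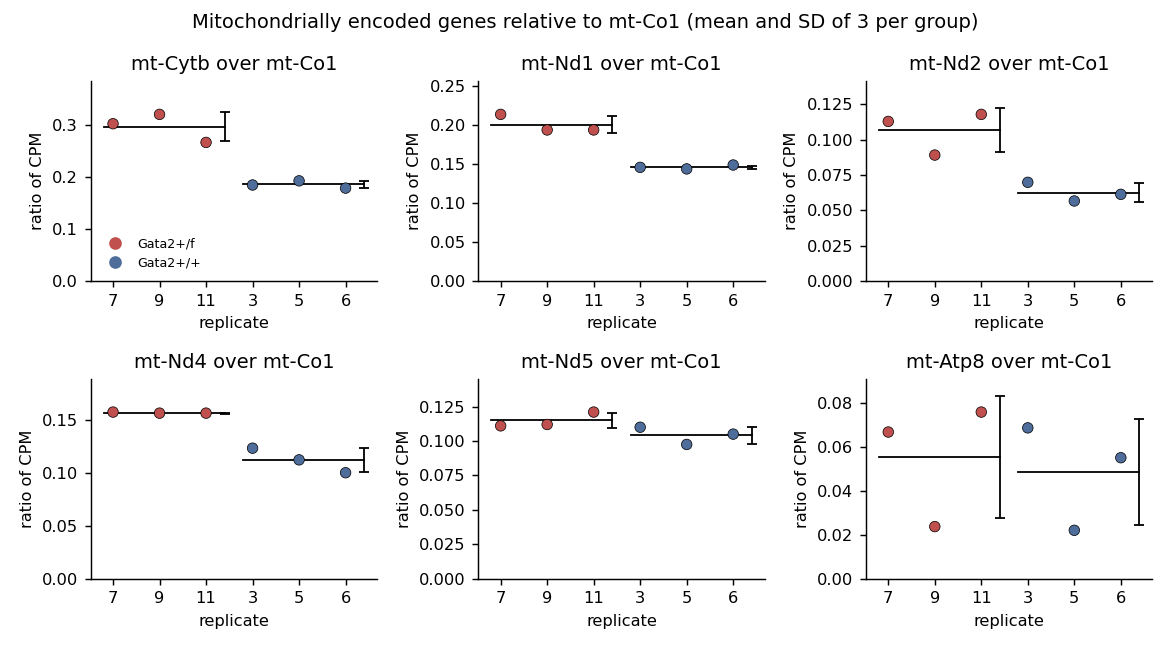
Ratio of the CPM of mt-Cytb, mt-Nd1, mt-Nd2, mt-Nd4, mt-Nd5 and mt-Atp8 to that of mt-Co1 in each library (points), with the group mean (line) and SD (bar, n = 3), Gata2+/f on the left and Gata2+/+ on the right. The ratios of mt-Cytb, mt-Nd1, mt-Nd2 and mt-Nd4 are higher in all Gata2+/f libraries, that of mt-Nd5 by a small margin, and that of mt-Atp8 overlaps.

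Genes that serve the respiratory chain from outside the member list were also mostly positive, but DESeq2 called few of them. A link between these genes and the shift of the subunits was not tested. Of 77 genes for the mitochondrial ribosome, which makes the mitochondrially encoded subunits, 72 were positive (median 0.49) and DESeq2 called 5 higher (6.49%, near the 6.16% of all tested genes) and 0 lower, with summed levels of 3099, 3490 and 2189 CPM in Gata2+/f, against 2141, 2123 and 2267 CPM in Gata2+/+. Mrpl51 (1.0 ± 0.25) and Mrpl28 (0.96 ± 0.26) had the smallest p. Of 21 electron carriers and feeders 16 were positive (median 0.32, DESeq2 1 higher), led by Cycs, cytochrome c itself, at 148, 154 and 119 CPM in Gata2+/f, against 84.4, 68.5 and 73.0 CPM in Gata2+/+ (0.90 ± 0.21, edgeR adjusted p = 0.10), and by Coq2, an enzyme of ubiquinone synthesis (0.71 ± 0.25). Of 35 genes of mitochondrial gene expression 25 were positive (median 0.33, DESeq2 1 higher), with Tufm (0.83 ± 0.23) and Pnpt1 (0.59 ± 0.22) first. Of 13 import genes 11 were positive (median 0.45, DESeq2 0), with Tomm40 (0.86 ± 0.30) and Timm50 (0.82 ± 0.30) first. Of 13 citric acid cycle genes 11 were positive (median 0.34, DESeq2 1 higher), with Idh3a (1.13 ± 0.35) and Suclg2 (0.75 ± 0.30) first. A single call is 4.76% of the electron carriers, 2.86% of the gene expression list and 7.69% of the citric acid cycle list, against 6.16% of all genes. The 37 other assembly factors were more mixed, with 22 positive (median 0.22) and DESeq2 calls of 1 higher and 1 lower (2.7% each, against 6.16% and 5.7% of all genes). Among them Coa3 was at 0.91 ± 0.27 and Surf1, which like Coa3 serves the assembly of complex IV, at −0.70 ± 0.20, without overlap in either.

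Glycolysis genes had 9 of 15 positive (median 0.22, DESeq2 0), with Hk2 (0.68 ± 0.30) and Aldoa (−0.63 ± 0.29) at the smallest p. Of 9 regulators of mitochondrial biogenesis 4 were positive (median −0.04, DESeq2 0). Myc, which drives growth genes, had 158, 205 and 81.6 CPM in Gata2+/f, against 81.1, 80.7 and 61.1 CPM in Gata2+/+ (1.0 ± 0.34). Pprc1, a coactivator of nuclear genes for respiration, was at 0.81 ± 0.28. All other regulators overlapped. Nrf1 was at 0.14 ± 0.20, Esrra at 0.04 ± 0.24 and Gabpb1 at −0.04 ± 0.23. Gabpa was at −0.31 ± 0.27, Yy1 at −0.40 ± 0.24 and Ppargc1b at −0.71 ± 0.45. Ppargc1a was at −3.06 ± 1.27, with at most 1.95 CPM in any library. Proliferation genes were all positive (16 of 16, median 1.17), led by Birc5 (1.60 ± 0.28) and Tpx2 (1.3 ± 0.25). DESeq2 called 10 of them higher (62.5%, against 6.16% of all tested genes). Their median deviation was 0.894, 0.340 and 0.300 in Gata2+/f, against −0.286, −1.086 and −0.298 in Gata2+/+. Among the Gata2+/f libraries, proliferation genes were highest in replicate 7 and the nuclear respiratory subunits in replicate 9. Both sets were lowest of that group in replicate 11, and lowest of all libraries in Gata2+/+ replicate 5. Immediate early genes were all negative (0 of 10 positive, median −1.58), with Junb (−2.36 ± 0.43) and Egr1 (−3.03 ± 0.75) first. DESeq2 called 4 of them lower (40%, against 5.7% of all tested genes). The part of proliferation or of the handling of the cells in the respiratory values was not tested.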

How the data were processed

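The deposited table gives, per Ensembl gene and library, expected counts (reads as estimated by the authors' RSEM run), not normalized. Per the submitters' processing notes, CASAVA 1.8.2, STAR 2.5.4a, RSEM 1.3.0 and GRCm38 were used; per the labels' protocols, libraries were poly-A selected and stranded. The annotation release and the strand setting are not given in the sources used here, so the 28 nuclear members that share exon bases with a gene on the opposite strand are uncertain, as are genes with near-identical copies (BLAST+ 2.17.0, 95% identity over 150 bases; 15 members with a copy that held over 1 percent of the member's reads). For Ndufb4 such a copy, Ndufb4c, held more reads than the gene.

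Symbols came from GENCODE M21, which held 97.5% of the 43629 IDs. Expected counts were rounded, filtered (filterByExpr, minimum count 10) to 15432 genes, scaled by TMM and tested with edgeR 4.0.16 (R 4.3.3) by its quasi-likelihood test, two-sided, adjusted by Benjamini-Hochberg over these genes. Log2 fold changes are Gata2+/f over Gata2+/+ with SEs from that fit. CPM use TMM factors; levels per kilobase divide by the median length of the principal transcripts. Members with the smallest p in each class, the most abundant per kilobase, isoform sets and up to 2 genes of smallest p per other list were named. Alternatives were DESeq2 1.42.0, the newer form of edgeR's test, limma 3.58.1 voom with quality weights, other scalings and filters, and leaving out each library. The fits were tested on simulated data. No pair of libraries agreed within sampling noise (chi-square per gene 240.5 or more). The members and lists were chosen with earlier results of these data known; counts and medians over lists are descriptions without a test. Counting floors cover counting error only.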

Additional observations from a re-analysis of the deposited data

Results flagged for a closer look

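Gm29216, a copy of part of mt-Co1 on chromosome 1 that matches it at 99.79% of 483 aligned bases, held 55280 expected counts in Gata2+/f replicate 9. It held 21.6 and 77.7 in Gata2+/f replicates 7 and 11, against 57.5, 444 and 219 in Gata2+/+ replicates 3, 5 and 6. It drew attention because a row outside the member list carried a large signal in 1 library. Gata2+/f replicate 9 was also the library with the lowest mt-Co1 level, and adding both rows left it lowest, at 9529 CPM, against 13053 and 20033 CPM in the other Gata2+/f libraries and 15471 to 19757 CPM in Gata2+/+.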

How the results depend on the processing

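The edgeR count of called genes was 0, and it was 1829 with DESeq2, 32 with the newer form of the test, 18 with limma voom, 19 with no filter beyond 1 count and 444 at an adjusted p under 0.1. Leaving out single libraries gave 0 to 66 calls, with 66 without Gata2+/f replicate 11 and 1 without Gata2+/+ replicate 6. Called members were 2 with DESeq2 and 1 (Ndufa6) at an adjusted p under 0.1, and 0 in the other settings run. The median of the nuclear subunits was 0.27 to 0.52 with a library left out and that of complex IV 0.32 to 0.60, both highest without Gata2+/f replicate 11; the cause was not tested. Upper quartile scaling moved the median of all genes to 0.11 and that of the nuclear subunits to 0.46. No class median changed sign in any setting, while 0 to 11 of the 107 members did so per setting. The chromosome 1 copies were added after the values had been seen and gave a mitochondrial median of 0.09. No paired analysis was possible because the groups share no replicate number. The common biological coefficient of variation was 0.483, and with 3 libraries per group the 95% interval of a subunit's log2 fold change spanned, for Atp5k, 0.17 to 1.27.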
